A study of Homo sapiens with 9 samples.

Results

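Transcript levels of 10 regulators of Wnt signalling are described here in U87 cells, a human glioblastoma line. The genes are RSPO3, LGR4, ZNRF3, WNT5A, WNT5B, DKK1, DKK3, AXIN2, LEF1 and TCF7. They were taken from the count table by gene symbol, 10 of 58735 genes, and all 10 passed the filter on low counts that left 16874 genes to test. The genes were chosen by their pathway and with their measured differences between PCDH, IDH1mt and C269S known, so the levels, differences and calls of the 10 genes are a description, and no p-value is given for them. Bulk RNA sequencing covered 9 libraries, 3 from each group. The PCDH group carried the vector alone, the IDH1mt group the R132H mutant of isocitrate dehydrogenase 1, and the C269S group that mutant with a further change from cysteine to serine. The series is about self-palmitoylation of mutant IDH1, in which the enzyme takes up palmitate. All groups were stably expressing U87 cells that kept their own IDH1, and no group carried added IDH1 without R132H. The sources used here do not give the number of selected lines behind each construct or of separate cultures behind its 3 libraries, so a construct cannot be told apart from its line, and the spread between libraries may be technical.

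Wnt ligands are secreted lipid-bearing proteins that bind Frizzled receptors. In the canonical branch, with the co-receptors LRP5 or LRP6, they stop the AXIN and APC complex from destroying beta-catenin, which then acts with TCF and LEF factors on target genes. ZNRF3 and RNF43 remove Frizzled from the cell surface, and R-spondins, bound to LGR4, LGR5 or LGR6, take these ubiquitin ligases away and so amplify the Wnt signal. WNT5A and WNT5B mostly signal without beta-catenin and are linked to cell movement, and WNT5A is known for promoting invasion in glioblastoma.

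Of the 10 genes, 7 had a RefSeq promoter window on GRCh38.p14, with 10 windows in all. In the 250 bases before each start, the core recognised by TCF and LEF factors was searched as CTTTG followed by AA, AT, TA or TT, on both strands. The windows of DKK1 held 2 matches and a TCF7 window held 1, and the 8 other windows held 0, against 12% of 35116 such windows genome-wide with at least 1 match. Upstream sequence is shown for RSPO3, the gene with the widest difference below, and for DKK1, the gene with most matches, with the matches in capitals. The RSPO3 stretch, on the plus strand at chr6:127118421-127118603, is the part of its window that lies before the gene's start in the count table, and the DKK1 stretch, on the plus strand at chr10:52314031-52314280, is its whole window.
RSPO3: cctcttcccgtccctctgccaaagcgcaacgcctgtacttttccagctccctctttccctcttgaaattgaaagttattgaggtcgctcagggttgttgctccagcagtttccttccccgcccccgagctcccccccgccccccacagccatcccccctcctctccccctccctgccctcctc
DKK1: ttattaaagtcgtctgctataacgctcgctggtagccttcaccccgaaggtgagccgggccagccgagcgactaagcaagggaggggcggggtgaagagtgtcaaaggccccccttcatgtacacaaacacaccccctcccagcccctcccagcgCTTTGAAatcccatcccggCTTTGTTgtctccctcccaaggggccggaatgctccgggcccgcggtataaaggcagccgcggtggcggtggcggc
The DKK1 matches begin 95 and 76 bases before the RefSeq start. A match of letters does not show that a factor binds there.

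Total counts lay between 19108925 and 24803711 per library. IDH1 stood at 102 to 118 CPM (counts scaled to library size with TMM factors) in PCDH, 660 to 693 CPM in IDH1mt and 718 to 773 CPM in C269S. The 3 ranges do not overlap, but a gene's count does not read the C269S change itself. PCDH replicate 3 lay far from the other PCDH libraries (chi-square per degree of freedom 10.2 and 10.9). Every other replicate pair of a group lay closer together (3.69 to 6.36). Some counts of calls and some single genes are therefore also given without PCDH replicate 3. As for markers, NES was detected at a mean of 12.0 FPKM (read density scaled for gene length and depth) and OLIG2 at 2.42 FPKM. PDGFRA, a receptor of glial progenitors, averaged 0.688 FPKM in PCDH, 1.62 in IDH1mt and 1.07 in C269S, and its groups did not overlap. The glial markers GFAP (0.290 FPKM) and S100B (0.116 FPKM) were low and SOX2 had at most 3 counts. Of the 5 mesenchymal markers, VIM, CD44, FN1 and COL1A2 had means of 151 to 722 FPKM and THY1 had at most 15 counts. COL1A2 averaged 197 FPKM in PCDH, 114 in IDH1mt and 143 in C269S, the group order of RSPO3, while FN1 (612, 716 and 838 FPKM) and CD44, whose levels follow below, were lowest in PCDH. VIM was highest in PCDH (578.7, 520.5 and 519.3 FPKM). Endothelial markers (PECAM1, CDH5 and KDR) summed to 3.22 to 3.33 FPKM in PCDH, 2.32 to 2.49 in IDH1mt and 2.78 to 2.92 in C269S. That order was KDR's (2.40 to 2.58, 1.38 to 1.52 and 2.03 to 2.12 FPKM). PECAM1 (0.735, 0.877 and 0.766 FPKM) had its highest mean in IDH1mt, though its IDH1mt and C269S ranges overlapped. CDH5 (0.0334, 0.0701 and 0.0194 FPKM) did too, but had 0 to 17 counts per library, with the 17 in IDH1mt replicate 3. Neuronal markers (SYT1, RBFOX3 and SNAP25) summed to 14.4 to 16.1, 16.7 to 19.2 and 16.6 to 18.5 FPKM. Most of each sum was SNAP25 (mean 14.8 FPKM over the 9 libraries), with SYT1 at 1.89 and RBFOX3 at 0.0924 FPKM. The part of these markers in the results was not tested. Summed FPKM of 3 leukocyte markers was 0.512 to 1.17 and of 3 epithelial markers 0.0867 to 0.563 over the 9 libraries.

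Levels between genes were compared on FPKM, which is scaled for length. WNT5A was the most abundant of the 10 genes, with a mean of 74.2 FPKM over the 9 libraries (64.1 to 79.8), followed by LGR4 at 15.2 FPKM (11.6 to 17.9) and DKK3 at 9.79 FPKM (9.36 to 10.6). RSPO3 came next at 7.66 FPKM (4.16 to 10.1) and WNT5B at 5.87 FPKM (5.25 to 6.61). TCF7 averaged 3.52 FPKM, ZNRF3 2.20, LEF1 1.54, AXIN2 0.641 and DKK1 0.466 FPKM. In this order the ranges over libraries overlapped between DKK3 and RSPO3, between RSPO3 and WNT5B and between AXIN2 and DKK1, and not between the other neighbours.

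Within their families RSPO3 and LGR4 carried nearly all of the signal, and WNT5A and TCF7 a smaller part. WNT5A made up 56.6% to 64.6% of the summed FPKM of the 19 Wnt ligands and WNT5B 4.25% to 5.40%. The other abundant ligand was WNT7B, a ligand of the canonical branch, at 36.6 FPKM, and WNT3 followed at 1.60 FPKM. RSPO3 supplied 95.6% to 99.7% of R-spondin FPKM, since RSPO2 averaged 0.0711 FPKM, RSPO4 0.0139 FPKM and RSPO1 had 0 counts in every library. A count of 0 allows up to 3 counts, which is 0.123 to 0.161 CPM in these libraries, for counting error only. LGR4 gave at least 99.7% of the FPKM of LGR4, LGR5 and LGR6, and RNF43, the partner of ZNRF3, averaged 0.0447 FPKM. Among the DNA-binding factors TCF7 held 44.7% to 55.3% of FPKM, with TCF7L2 at 20.1% to 31.4%, LEF1 at 20.6% to 27.8% and TCF7L1 at 1.44% to 2.91%. ROR1 and ROR2, receptors of WNT5A, were near background at 0.0362 and 0.0206 FPKM, while RYK (6.98 FPKM) and PTK7 (7.97 FPKM), which also bind Wnt proteins or Frizzled complexes, were expressed. LRP6 stood at 4.01 FPKM and LRP5 at 0.0413 FPKM.

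**Figure D1:**
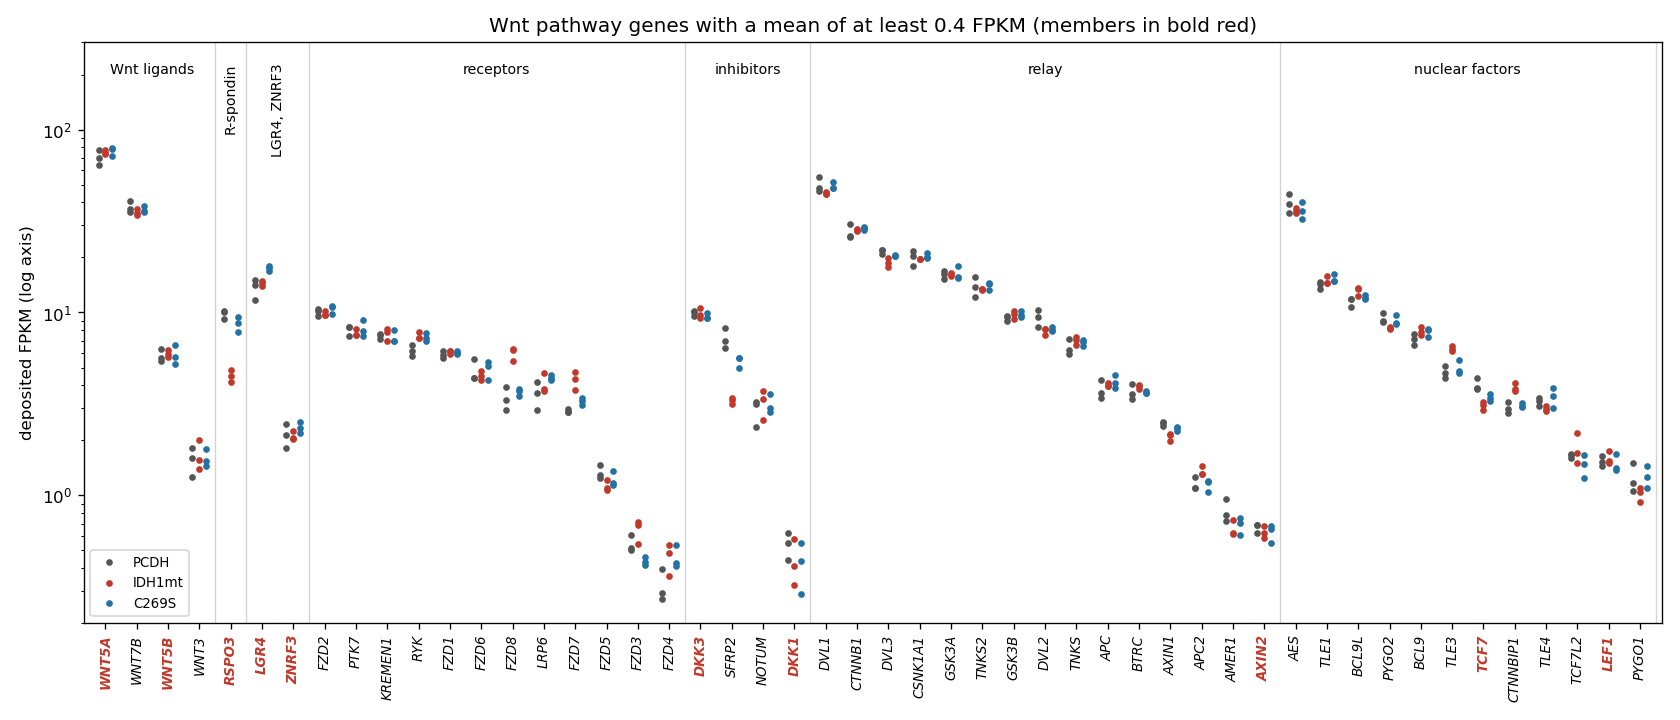
Deposited FPKM on a log axis for the 50 Wnt pathway genes of 7 roles with a mean of at least 0.4 FPKM, 1 point per library, coloured by group. The 10 genes of this description are named in bold red, WNT5A lies highest of all ligands, and the IDH1mt points of RSPO3 lie below those of PCDH and C269S.

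RSPO3, the R-spondin of these cells (ENSG00000146374, chromosome 6, 127118604 to 127197765 on GRCh38), was lower in IDH1mt than in both other groups. In PCDH it had 29.6, 32.1 and 32.4 CPM in replicates 1, 2 and 3, in IDH1mt 13.3, 15.4 and 14.4 CPM, and in C269S 30.4, 25.0 and 28.1 CPM. The 3 IDH1mt libraries lay below all 6 others, and the ranges of C269S and PCDH overlapped. PCDH averaged 31.4 ± 1.54 CPM, IDH1mt 14.4 ± 1.05 CPM and C269S 27.8 ± 2.68 CPM (SD, n = 3 each). In edgeR's quasi-likelihood fit RSPO3 was called lower in IDH1mt than in PCDH, by 2.18-fold (log2 fold change -1.13, SE 0.10), and higher in C269S than in IDH1mt, by 1.94-fold (0.95, SE 0.10). C269S and PCDH differed by -0.17 (SE 0.10, 95% interval -0.37 to 0.02), which was not called. All 17 alternatives kept these calls, with log2 fold changes from -1.18 to -0.97 for IDH1mt against PCDH and from 0.82 to 1.02 for C269S against IDH1mt, and without PCDH replicate 3 the first was -1.10. In bulk libraries a lower level cannot be told apart from fewer cells that express the gene.

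**Figure D2:**
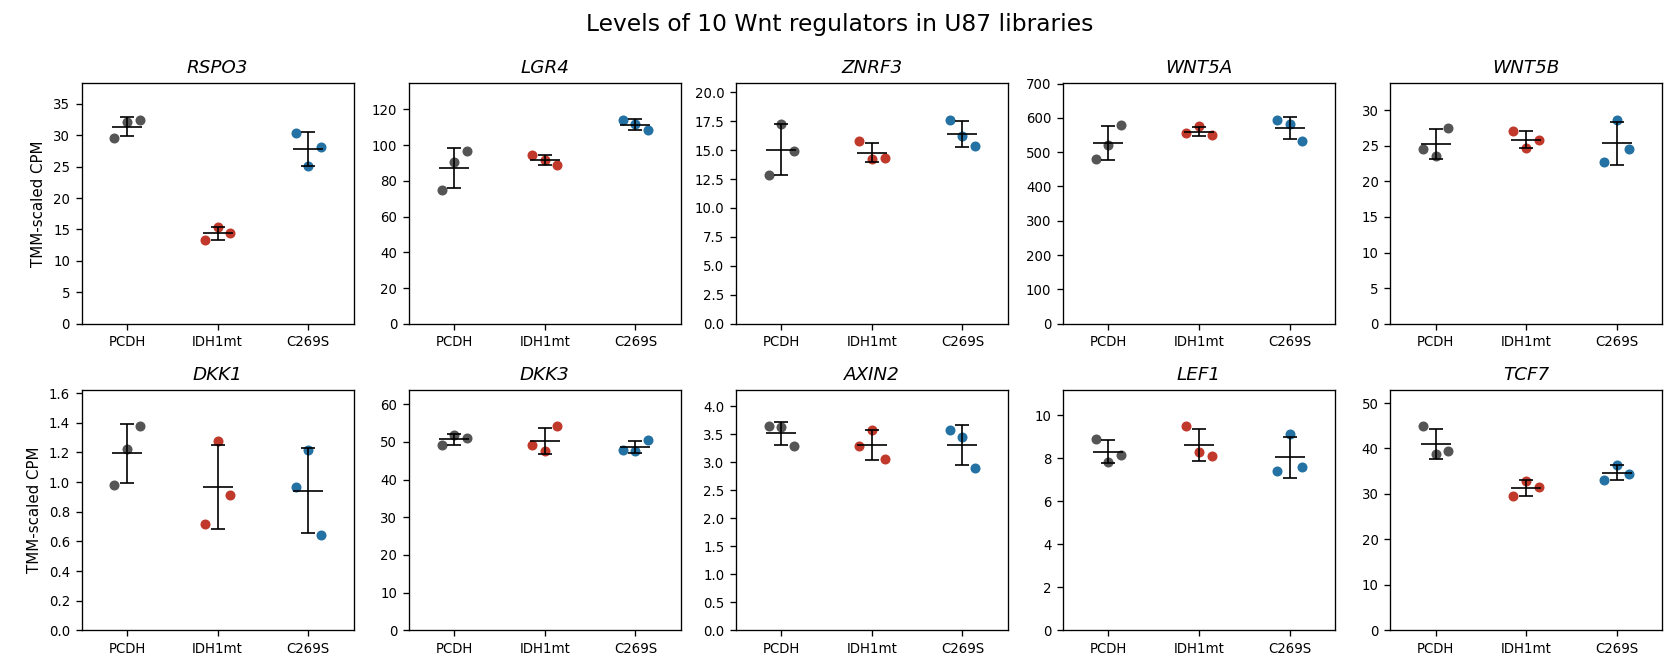
TMM-scaled CPM of the 10 genes in each library, from 0, with points for replicates 1 to 3 from left to right and a bar and whiskers for the mean and SD of 3 libraries. RSPO3 has its 3 IDH1mt libraries at 13.3 to 15.4 CPM, below the 6 others at 25.0 CPM or more, and LGR4 its 3 C269S libraries at 108 CPM or more.

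LGR4, the receptor that binds R-spondins (ENSG00000205213, chromosome 11, 27365961 to 27472775), was highest in C269S. It had 74.7, 90.5 and 96.4 CPM in PCDH libraries, 94.6, 91.8 and 89.1 CPM in IDH1mt and 114, 112 and 108 in C269S. The 3 C269S libraries lay above all others, and PCDH replicate 1 was the lowest. LGR4 was called higher in C269S than in PCDH (1.28-fold, log2 fold change 0.35, SE 0.07) and than in IDH1mt (1.21-fold, 0.28, SE 0.07), while IDH1mt and PCDH differed by 0.07 (95% interval -0.08 to 0.22) with no call. The call against PCDH was lost without PCDH replicate 1 (0.25) or C269S replicate 1 (0.34), and on FPKM plus 1 (0.34) or plus 0.1 (0.36). The call against IDH1mt was lost with the replicate number as a block (0.28), on FPKM (0.26 and 0.28), and without C269S replicate 1 or 2 or any 1 IDH1mt library (0.26 to 0.30).

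ZNRF3, the ubiquitin ligase that clears Frizzled receptors (ENSG00000183579, chromosome 22, 28883592 to 29057487), was not called in any comparison. It had 12.9, 17.3 and 15.0 CPM in PCDH libraries, 15.8, 14.2 and 14.4 CPM in IDH1mt and 17.6, 16.3 and 15.4 in C269S, with overlapping groups. Its log2 differences were -0.03 for IDH1mt against PCDH (95% interval -0.26 to 0.21), 0.12 for C269S against PCDH (-0.11 to 0.36) and 0.15 for C269S against IDH1mt (-0.09 to 0.39).

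WNT5A (ENSG00000114251, chromosome 3, 55465715 to 55490539) had 480, 521 and 580 CPM in PCDH libraries, 555, 576 and 549 CPM in IDH1mt and 594, 582 and 533 in C269S. The groups overlapped, and PCDH spread more widely (SD 50.2 CPM) than IDH1mt (14.3 CPM) or C269S (32.5 CPM). Its log2 difference was 0.09 for IDH1mt against PCDH (95% interval -0.03 to 0.21), 0.11 for C269S against PCDH (-0.01 to 0.23) and 0.02 between the mutants (-0.10 to 0.15), none of them called. Without PCDH replicate 3, the PCDH library with the highest level, WNT5A was called higher in IDH1mt (0.16) and in C269S (0.19). Calls over all genes also went up in that fit, from 2375 to 3048 and from 239 to 903. WNT5B (ENSG00000111186, chromosome 12, 1529891 to 1647243), a close relative of WNT5A, ranged from 23.6 to 27.6 CPM in PCDH libraries, 24.7 to 27.0 CPM in IDH1mt and 22.8 to 28.6 in C269S. Its log2 difference was 0.03 for IDH1mt against PCDH (95% interval -0.17 to 0.23), 0.00 for C269S against PCDH (-0.20 to 0.21) and -0.03 between the mutants (-0.23 to 0.17). The antisense gene WNT5A-AS1 overlaps WNT5A and FBXL14 overlaps WNT5B, and neither was called in any comparison. No strand setting of the counts was given in the sources used here.

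DKK3, a secreted glycoprotein of the Dickkopf family that, unlike DKK1, does not block LRP6 in the classical way (ENSG00000050165, chromosome 11, 11963106 to 12009769), was not called in any comparison. It ranged from 49.2 to 51.9 CPM in PCDH libraries, 47.7 to 54.1 CPM in IDH1mt and 47.6 to 50.5 in C269S. The log2 differences were -0.01 for IDH1mt against PCDH (95% interval -0.17 to 0.14), -0.06 for C269S against PCDH (-0.21 to 0.09) and -0.05 between the mutants (-0.20 to 0.11). DKK1, the inhibitor that binds LRP5 and LRP6 and a known target of beta-catenin (ENSG00000107984, chromosome 10, 52314296 to 52318042), was near the limit of measurement. It had 20, 29 and 31 counts in PCDH, 17, 31 and 17 in IDH1mt and 19, 24 and 14 in C269S, or 0.643 to 1.38 CPM. The intervals were wide, -1.12 to 0.52 for IDH1mt against PCDH, -1.18 to 0.49 for C269S against PCDH and -0.89 to 0.80 between the mutants. Differences of any size within these intervals remain possible. The antisense gene PRKG1-AS1 overlaps DKK1 and had 63 counts over the libraries, beside 202 of DKK1. Any effect of this overlap on the DKK1 level was not tested.

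AXIN2, a scaffold of the destruction complex and the usual readout of beta-catenin activity (ENSG00000168646, chromosome 17, 65528563 to 65561647), had 3.28 to 3.64 CPM in PCDH libraries, 3.06 to 3.58 CPM in IDH1mt and 2.90 to 3.57 in C269S. Its log2 difference was -0.08 in IDH1mt (95% interval -0.51 to 0.34) and -0.09 in C269S (-0.52 to 0.34), each against PCDH, and -0.01 between the mutants (-0.44 to 0.43). LEF1, a DNA-binding partner of beta-catenin (ENSG00000138795, chromosome 4, 108047545 to 108168956), had 7.84 to 8.90 CPM in PCDH libraries, 8.09 to 9.47 CPM in IDH1mt and 7.40 to 9.12 in C269S. Its differences were 0.06 (95% interval -0.24 to 0.35), -0.05 (-0.34 to 0.25) and -0.10 (-0.40 to 0.19) in the same order. Neither gene was called in any comparison, and the groups of each overlapped. AC004805.1, a coding gene on the same strand, overlaps AXIN2 and had 0 counts over the libraries. Any effect of this overlap on the AXIN2 level was not tested.

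TCF7, the other DNA-binding partner among the 10 genes (ENSG00000081059, chromosome 5, 134114711 to 134151865), was lower in IDH1mt. It had 44.8, 38.9 and 39.4 CPM in PCDH libraries, 29.5, 32.9 and 31.5 CPM in IDH1mt and 33.1, 36.4 and 34.5 in C269S. The lowest PCDH library lay above every mutant library, and the highest IDH1mt library just below the lowest C269S library. TCF7 was called lower in IDH1mt than in PCDH (1.31-fold, log2 fold change -0.39, SE 0.08), and all 17 alternatives kept this call, from -0.44 to -0.30. C269S differed from PCDH by -0.24 (95% interval -0.41 to -0.07) and from IDH1mt by 0.15 (-0.03 to 0.32), and neither was called. The gene SKP1, on the other strand, overlaps TCF7 and had a log2 difference of 0.05 (SE 0.06) in IDH1mt against PCDH. As a share of the FPKM of the 4 TCF and LEF genes, TCF7 was 54.6 ± 0.863% in PCDH, 46.7 ± 2.36% in IDH1mt and 52.7 ± 1.92% in C269S (SD, n = 3 each).

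Of the 10 genes, 2 were called lower and 0 higher in IDH1mt against PCDH, where 14.1% of all genes tested were called (7.18% higher and 6.9% lower). The 0 was also 0 at an unadjusted p under 0.05 in edgeR and 0 in DESeq2. In C269S against PCDH 1 was called higher and 0 lower, where 1.42% of all genes were called (0.883% higher and 0.533% lower). At an unadjusted p under 0.05 edgeR had 1 lower, and DESeq2 called 0 lower. In C269S against IDH1mt 2 were called higher and 0 lower, where 4.9% of all genes were called (2.29% higher and 2.61% lower), with 0 lower at an unadjusted p under 0.05 in edgeR and 0 in DESeq2. The median log2 difference of the 10 genes was -0.02, -0.05 and 0.01 in these comparisons, beside -0.01, -0.01 and 0.00 over all genes tested. With library size alone in place of TMM scaling the share of all calls that were higher went from 51% to 35.2%, from 62.3% to 52.9% and from 46.8% to 60.1%. Each pair of comparisons shares 1 group of libraries. Nothing is read from these counts, since the genes were chosen with the comparisons known.

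**Figure D3:**
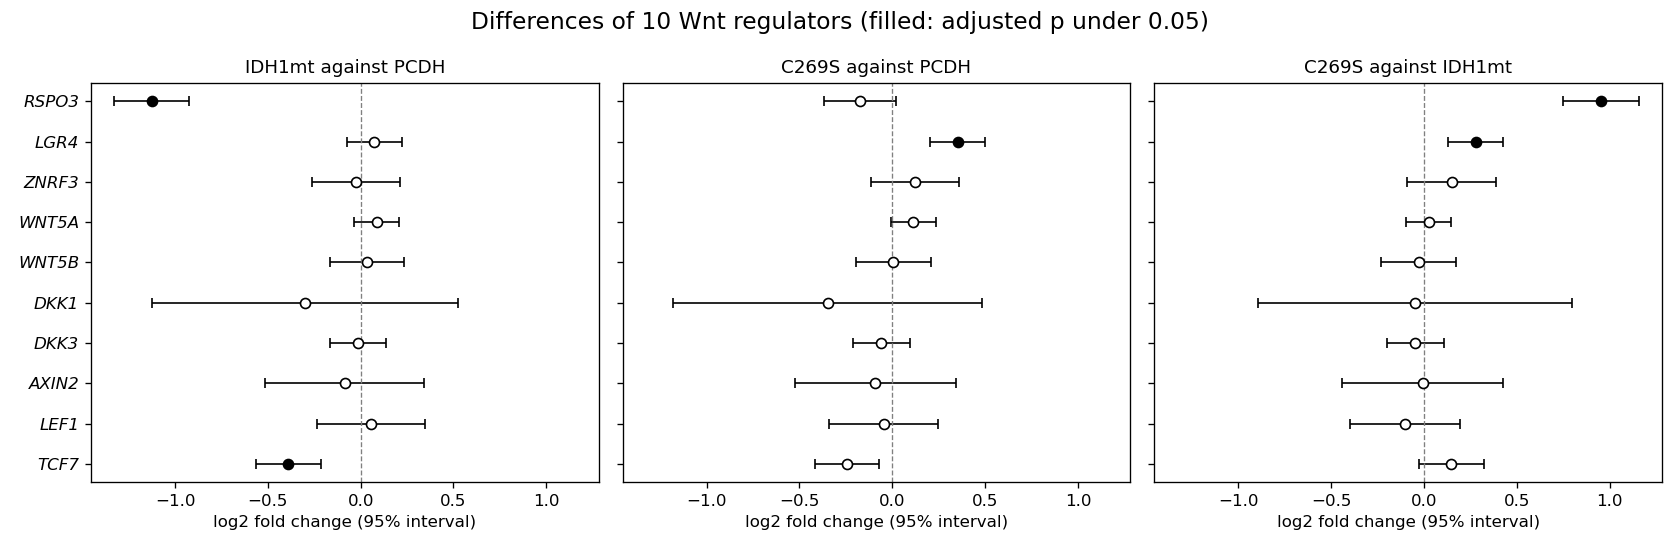
Log2 fold changes of the 10 genes with 95% intervals in the 3 comparisons, from edgeR's fit over all 9 libraries, with filled points for genes called at an adjusted p under 0.05. RSPO3 stands at -1.13 in IDH1mt against PCDH and at 0.95 in C269S against IDH1mt, and the intervals of DKK1 are the widest.

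The rest of the pathway was followed in 98 further genes listed by role, of which 61 could be tested. This list was also chosen with earlier results of these data known. Its counts, shares and p-values, here and below, are therefore a description. The 37 others had at most 19 counts in any library, and 10 of them had 0 counts in all 9 libraries. Between IDH1mt and PCDH 10 of the 61 rose and 5 fell (24.6%, beside 14.1% of all genes). With library size alone in place of TMM scaling the split was 6 and 6. The counts were 5 and 3 without PCDH replicate 1, 6 and 3 without IDH1mt replicate 2, with 3 lower also without PCDH replicate 2 or IDH1mt replicate 3 and 8 lower without PCDH replicate 3. DESeq2 called 11 higher and 5 lower, and edgeR had 13 and 9 at an unadjusted p under 0.05. The median log2 fold change of the 61 genes was 0.04, beside -0.01 over all genes tested.

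Among the receptors 3 of 13 rose in IDH1mt and 0 fell (23.1%, beside 14.1% of all genes). FZD8, a Frizzled receptor, had 13.5, 15.9 and 11.9 CPM in PCDH libraries, 22.1, 25.7 and 25.3 CPM in IDH1mt and 14.1, 15.5 and 15.0 in C269S. The IDH1mt libraries lay above all others. FZD8 rose 1.77-fold in IDH1mt against PCDH (log2 fold change 0.82, SE 0.11, edgeR adjusted p = 2.42e-06), and FZD7, another Frizzled receptor, rose 1.47-fold (0.55, SE 0.12, adjusted p = 0.00104). RYK, a Wnt-binding receptor without kinase activity, rose 1.20-fold (adjusted p = 0.015 in edgeR), a call lost when PCDH replicate 1 (0.0895) or IDH1mt replicate 3 (0.106) was left out. FZD2 and PTK7, the receptors with the highest FPKM, were not called, with mean levels of 21.4 and 73.1 CPM in PCDH and 20.9 and 70.1 CPM in IDH1mt.

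Of 4 other secreted inhibitors 1 fell and 0 rose (25%, beside 14.1% of all genes). SFRP2, a soluble Frizzled-related protein that binds Wnt ligands, had 16.8, 14.3 and 13.0 CPM in PCDH libraries, 6.44, 6.92 and 6.81 CPM in IDH1mt and 11.5, 11.5 and 10.2 in C269S. The 3 groups did not overlap, with C269S between the others. SFRP2 fell 2.19-fold in IDH1mt against PCDH (log2 fold change -1.13, SE 0.13, edgeR adjusted p = 1.88e-07). NOTUM, an enzyme that removes the lipid from Wnt proteins, had 8.90 ± 1.45 CPM in PCDH and 9.78 ± 1.74 CPM in IDH1mt (SD, n = 3 each) and was not called. None of the 4 other ligands tested was called, WNT7B having 192 ± 15.1 CPM in PCDH and 180 ± 6.04 CPM in IDH1mt and WNT3 6.80 ± 1.22 and 7.19 ± 1.37 CPM.

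Inside the cell 0 of 15 relay genes rose and 2 fell (13.3%), beside 14.1% of all genes. Of 12 nuclear factors 2 rose and 0 fell (16.7%). Of 7 targets of beta-catenin outside the 10 genes, taken over all roles, 2 rose and 1 fell (42.9%, beside 14.1% of all genes). With the targets among the 10 genes, 2 of 12 rose and 2 fell (33.3%, beside the same 14.1%). The further fall was that of TCF7, which was chosen with its difference known, so nothing is read from this share. TLE3, a co-repressor of TCF factors, rose 1.34-fold (0.42, SE 0.08, adjusted p = 0.000143 in edgeR). CTNNB1, which encodes beta-catenin, had 332 ± 31.2 CPM in PCDH libraries, 339 ± 3.82 CPM in IDH1mt and 347 ± 5.62 in C269S and was not called. CCND1, cyclin D1, had 572 to 609 CPM in PCDH libraries, 387 to 428 CPM in IDH1mt and 539 to 571 in C269S, and CD44, a hyaluronan receptor, 2619 to 2838, 3375 to 3439 and 3117 to 3181 CPM. CCND1 fell (log2 fold change -0.57) and CD44 rose (0.33) in IDH1mt against PCDH, so these targets moved in opposite directions. Of the 6 planar polarity genes, PRICKLE2 rose 1.30-fold and CELSR1 1.20-fold, and CELSR2 fell by 0.42 on the log2 scale (adjusted p = 0.000265, 0.0169 and 0.00171 in edgeR). The call of CELSR1 depended on PCDH replicate 1 and on IDH1mt replicate 2 (edgeR adjusted p = 0.072 and 0.167 without them), and was also lost with library size alone (0.0504) and on FPKM plus 1 or plus 0.1 (0.108 and 0.102 in limma). CELSR2 lost its call on FPKM plus 1 (adjusted p = 0.0509 in limma). PORCN, the enzyme that puts the lipid on Wnt proteins, rose by 0.24 on the log2 scale. Outside the naming rule and given after their values were seen, DVL2 and DVL3, relay proteins, fell by 0.24 and 0.20, and CTNNBIP1, an inhibitor of beta-catenin, and MYC rose by 0.36 and 0.22. These last 5 calls were each lost without PCDH replicate 1 or IDH1mt replicate 2, among other libraries. With the replicate number as a block PORCN (edgeR adjusted p = 0.0671), DVL2 (0.0597), CTNNBIP1 (0.0639) and MYC (0.0774) lost theirs, and with library size alone PORCN (0.0946), CTNNBIP1 (0.0781) and MYC (0.118).

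Between C269S and IDH1mt 3 of the 61 genes were higher in C269S and 5 lower (13.1%, beside 4.9% of all genes). SFRP2 was higher in C269S by 0.72 on the log2 scale (SE 0.14, adjusted p = 0.000772 in edgeR), CELSR2 by 0.54 (adjusted p = 0.000175) and CCND1 by 0.48 (adjusted p = 1.82e-07). FZD8 was lower in C269S (log2 fold change -0.71, SE 0.11, edgeR adjusted p = 6.85e-05), as was TLE3 (-0.34, adjusted p = 0.00417). The calls of SFRP2, CELSR2, CCND1 and FZD8 were kept in all 17 alternatives, and TLE3 lost its call without C269S replicate 1 (adjusted p = 0.0578 in edgeR) and on FPKM plus 1 or plus 0.1 (0.0812 and 0.0799 in limma). FZD7, FZD3 and PRICKLE2 had log2 fold changes of -0.39, -0.58 and -0.26 and each lost its call without any 1 of 5 of the 6 mutant libraries. The count of lower genes was 3 with the replicate number as a block, and from 1 to 5 when single libraries were left out, with 1 without C269S replicate 1, 2 without IDH1mt replicate 1, C269S replicate 2 or C269S replicate 3, and 3 without IDH1mt replicate 2.

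Between C269S and PCDH 1 of the 61 genes rose and 0 fell (1.64%, beside 1.42% of all genes). It was CD44, which rose 1.16-fold (log2 fold change 0.21, SE 0.05, edgeR adjusted p = 0.0124) and lost its call when either of replicates 1 and 2 of PCDH or of C269S was left out. At an unadjusted p under 0.05 edgeR had 7 higher and 4 lower, and DESeq2 called 1 higher and 0 lower. Without PCDH replicate 3 edgeR called 3 higher and 3 lower, SFRP2 among them (-0.49, adjusted p = 0.0248). Calls over all genes also went up in that fit, from 239 to 903. With all libraries SFRP2 had a log2 difference of -0.41 (95% interval -0.67 to -0.15, adjusted p = 0.115 in edgeR), FZD8 of 0.11 (-0.12 to 0.35), TLE3 of 0.08 (-0.08 to 0.24) and CCND1 of -0.09 (-0.20 to 0.02).

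**Figure D4:**
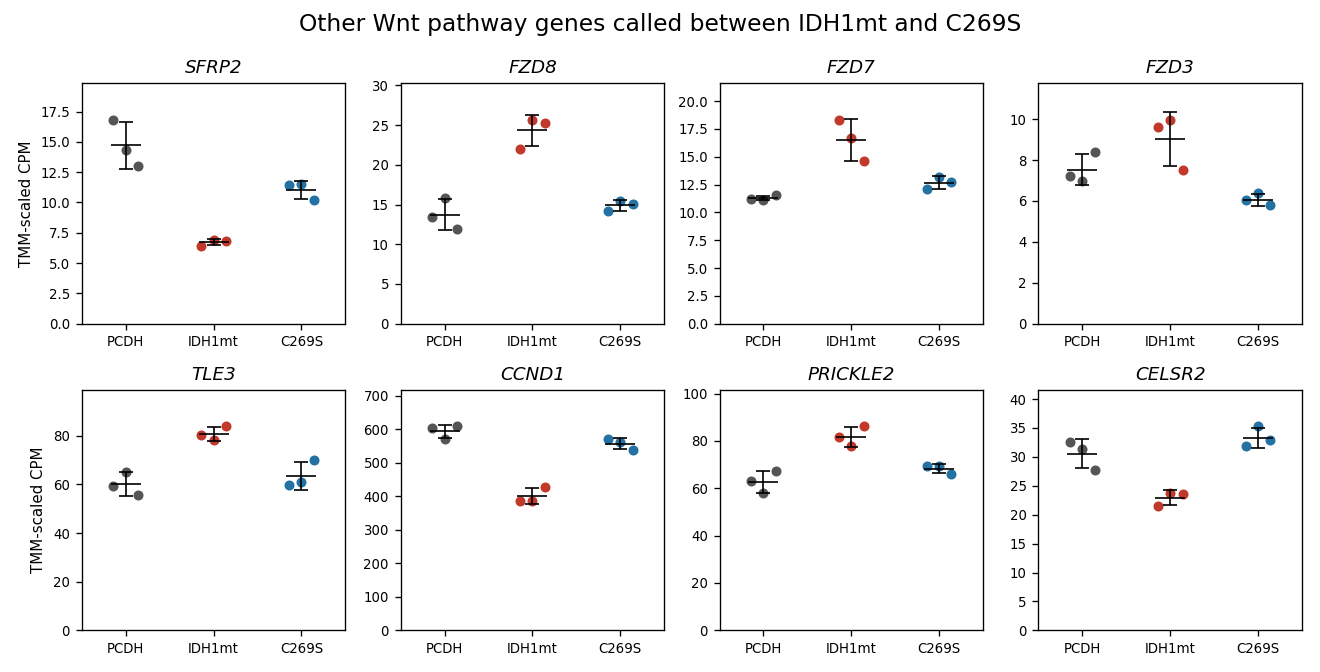
TMM-scaled CPM of the 8 further Wnt pathway genes called between IDH1mt and C269S, with points for replicates 1 to 3 from left to right and a bar and whiskers for the mean and SD of 3 libraries. SFRP2, CCND1 and CELSR2 are lowest in the IDH1mt libraries, and FZD8, FZD7, TLE3 and PRICKLE2 highest.

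The genes most like RSPO3 were sought by Pearson correlation of log2 CPM over the 9 libraries, among the 12273 coding genes whose mean reached 1 CPM. They were ANTXR2, an anthrax toxin receptor (r = 0.992), ATIC, an enzyme of purine synthesis (0.991), INSIG1, a regulator of sterol synthesis (0.986), CDH13, a cadherin anchored by lipid (0.986), and MOK, a protein kinase (0.983). ATIC had 64.4 to 65.7 CPM in PCDH libraries, 47.6 to 50.1 CPM in IDH1mt and 62.0 to 63.4 in C269S. All 5 were lowest in IDH1mt, with log2 fold changes against PCDH from -0.60 for INSIG1 to -0.28 for ANTXR2, smaller than the -1.13 of RSPO3. The points share their 9 libraries and fall into the 3 groups, so these coefficients describe the ordering of the groups.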

How the data were processed

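The deposited count table holds whole-number read counts per gene for 9 libraries, and a second deposited table holds the authors' FPKM for the same libraries. Per the submitters' processing notes, reads were aligned with HISAT2 2.0.5 and counted with featureCounts 1.5.0-p3 on GRCh38. Control, mt and CS in the column names were read as PCDH, IDH1mt and C269S. Genes were kept with filterByExpr, libraries scaled by TMM (trimmed mean of M values), and the 9 libraries fitted together with a mean per group in edgeR 4.0.16 (R 4.3.3, robust quasi-likelihood F test). Adjusted p-values follow Benjamini and Hochberg over all 16874 genes, and a gene was called under 0.05. SE was taken as |log2 fold change| over the root of F. The fit was tested on simulated counts.

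The members and lists were chosen with earlier results of these data known. Named by rule were the 10 members, for each comparison up to 10 other called Wnt genes with the lowest adjusted p, the 2 genes per role with the highest FPKM, and the 5 genes most like RSPO3. Genes given for their levels, such as RSPO1, ROR1, ROR2, LRP5, LRP6, TCF7L1 and TCF7L2, and genes that overlap the members were outside this rule. Alternatives were other scalings, no filter, DESeq2 1.42.0, the 6 libraries of a comparison, a replicate block, each library left out, and limma 3.58.1 on log2 of FPKM plus 1 or 0.1. Counts alone limit precision in the low genes. Promoter windows are from RefSeq.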

Additional observations from a re-analysis of the deposited data

How the results depend on the processing

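Across 17 alternatives no fold change called in either fit changed sign. Sign changes without a call in either fit were seen in 27 of all 510 fold changes of the 10 genes. They fell in 8 genes (AXIN2, DKK1, DKK3, LEF1, LGR4, WNT5A, WNT5B and ZNRF3). Of all 1632 fold changes of the other named genes, 31 changed sign without a call. In all, of 510 fold changes of the 10 genes 496 kept their call or lack of one, 12 lost a call and 2 gained one, and of 1632 of the other named genes 1533, 92 and 7 did. Genes called between IDH1mt and PCDH (2375) were 1580 on FPKM plus 0.1, between C269S and PCDH (239) 359 with DESeq2, 145 with the 6 libraries alone and 87 and 81 on FPKM plus 0.1 and plus 1, and between C269S and IDH1mt (827) 434 and 443 on FPKM. With single libraries left out these counts ran from 1617 to 3048, from 103 (without C269S replicate 1) to 903 (without PCDH replicate 3) and from 450 to 1244. On either FPKM scale the 10 genes had 0 called higher in C269S against PCDH and 1 against IDH1mt. Leaving out libraries gave 0 to 1 higher in IDH1mt against PCDH, 0 to 2 in C269S against PCDH and 1 to 2 in C269S against IDH1mt. Of the other Wnt genes, those higher in IDH1mt against PCDH were 6 with library size alone and 5 to 11 with libraries left out, and those lower 3 on FPKM plus 1 and 3 to 8. In C269S against PCDH those higher were 0 on FPKM and with the 6 libraries alone, 2 without the filter and 0 to 3 with libraries left out, and those lower 0 to 3. In C269S against IDH1mt those lower were 1 on FPKM and 1 to 5 with libraries left out. Leaving out a library also lowers the number of samples, and the cause of these shifts was not tested.

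Replicate numbers were not treated as pairs in the main fit. The deviations of same-numbered libraries correlated at -0.0871 to 0.0558 and of differently numbered ones at -0.0374 to 0.0725. Between IDH1mt and PCDH these were 0.00919 to 0.0558 and -0.0374 to 0.0168. Correlations this weak cannot show whether the libraries were paired. With the number as a block, 1987, 172 and 605 genes were called in the order above, 1 of the 10 genes was called higher in C269S against IDH1mt, and 3 other Wnt genes lower. Low counts limit DKK1 and AXIN2 most.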
